A study of Mus musculus with 20 samples.

Results

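Mouse mitochondrial DNA gives 13 proteins and 2 ribosomal RNAs that are measured here, together with 4 stretches of chromosome 1 that carry copies of them. The genes were taken by symbol from the deposited expression tables: every row whose symbol starts with mt-, plus the nuclear copies Gm28437, Gm28661, Gm10925 and Gm28438. This gave 19 of the 25052 listed genes, of which 13 are mitochondrial protein genes, 2 are mitochondrial rRNA genes and 4 are nuclear copies. None of the 22 mitochondrial tRNA genes of the annotation has a row. All 19 passed the filter on low values (0.5 FPKM or more in 5 or more libraries), as did 12775 genes in all.

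The hearts came from 20 male mice of 4 groups, 5 mice each: iKO on a high-fat diet (HFD), WT on HFD, iKO on chow and WT on chow. All animals carried floxed alleles of Acacb, which encodes the acetyl-CoA carboxylase ACC2. The iKO mice also carried the MerCreMer transgene, a Cre recombinase that tamoxifen switches on, and the WT mice were littermates without it. Tamoxifen was injected in both genotypes when the mice were 8 weeks old, at 20 mg/kg for 5 days, and the diet began 4 weeks after the last dose and lasted 16 weeks. The promoter of the transgene is not named in the labels, and animals with the Cre alone were not analysed here, so loss of ACC2 and presence of the Cre cannot be told apart. The chow hearts are libraries RT1 to RT10 and the HFD hearts are RT11 to RT20, so anything that went with the library number cannot be told apart from diet. Poly(A)-enriched RNA of frozen left ventricle was sequenced as 100-nt single-end reads.

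Mitochondrial DNA is transcribed from both strands into long precursors that cover many genes, and the transfer RNAs between the genes mark where the precursors are cut. Its protein genes all encode subunits of the respiratory chain and of ATP synthase, whose other subunits are encoded in the nucleus. The heart is among the tissues richest in mitochondria, and mitochondrial transcripts are known to take up a large part of its polyadenylated RNA. Parts of mitochondrial DNA have also been copied into nuclear chromosomes during evolution, and such copies can match the mitochondrial sequence closely enough that short reads fit either place.

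The 4 nuclear copies lie side by side on the minus strand of chromosome 1 in GRCm38, annotated by GENCODE M21 as unprocessed pseudogenes. Gm28438 at chr1:24612775-24613119 copies mt-Nd3, Gm28437 at chr1:24613189-24613971 copies mt-Co3, Gm10925 at chr1:24613974-24614651 copies mt-Atp6 and Gm28661 at chr1:24614885-24615565 copies mt-Co2. Gm28661, Gm10925 and Gm28437 had 0 mismatches to their mitochondrial gene over 681, 678 and 783 nt. Their annotated ends stop short of the gene by 3, 3 and 1 bases. Gm28438 had 1 mismatch over 345 nt, T3C, counted from 1 at the 5′ end of mt-Nd3, and it also stops 3 bases short. The 3′ ends are shown because these bases, in capitals, are nearly all that separates the annotated sequence of a gene from that of its copy. The capitals mark where the annotation of the copy stops. Chromosome 1 beyond that point was not compared, so these bases are not shown to differ there.
mt-Co2 (chrM:7652-7696, plus strand): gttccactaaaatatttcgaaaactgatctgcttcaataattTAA
Gm28661 (chr1:24614885-24614926, minus strand): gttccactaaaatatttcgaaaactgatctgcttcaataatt
mt-Atp6 (chrM:8563-8607, plus strand): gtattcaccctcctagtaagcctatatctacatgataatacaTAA
Gm10925 (chr1:24613974-24614015, minus strand): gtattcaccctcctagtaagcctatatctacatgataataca
mt-Co3 (chrM:9346-9390, plus strand): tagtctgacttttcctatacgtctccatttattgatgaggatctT
Gm28437 (chr1:24613189-24613232, minus strand): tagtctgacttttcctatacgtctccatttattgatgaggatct
mt-Nd3 (chrM:9762-9806, plus strand): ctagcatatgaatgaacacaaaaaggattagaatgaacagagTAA
Gm28438 (chr1:24612775-24612816, minus strand): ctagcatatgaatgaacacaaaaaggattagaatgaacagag
The starts of mt-Nd3 and Gm28438 follow, with the differing base in capitals.
mt-Nd3 (chrM:9459-9488, plus strand): atTaacctgtacactgttatcttcattaat
Gm28438 (chr1:24613090-24613119, minus strand): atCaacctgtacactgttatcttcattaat
Cut into all stretches of 100 nt, the length of a read, mt-Co2 shared 582 of its 585 stretches with Gm28661 (99.49%) and mt-Atp6 shared 579 of 582 with Gm10925 (99.48%). mt-Co3 shared 684 of 685 with Gm28437 (99.85%), and mt-Nd3 shared 243 of 249 with Gm28438 (97.59%). A read from within these genes therefore fits both places, and the deposited values split it between them by the authors' counting.

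In all 20 libraries the larger value of each pair was listed for the nuclear copy. Gm28661 had 54275 to 72853 FPKM, against 600 to 1315 FPKM for mt-Co2, which encodes a core subunit of cytochrome c oxidase. The copy held between 97.9% and 98.9% of the pair's summed FPKM. For mt-Co3, another core subunit of that enzyme, Gm28437 held 94.5% to 97.3%. Gm10925 held 86.8% to 91.4% of its sum with mt-Atp6, the membrane subunit of ATP synthase that lines the proton path, and Gm28438 held 86.4% to 90.2% of its sum with mt-Nd3, a complex I subunit. A nuclear row named a pseudogene is thus the main entry for the sequence of these 4 genes, and neither value of a pair can be read as the output of its own locus.

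The rows that received the smaller value were also the noisier ones. Averaged over the 4 groups, the within-group coefficient of variation was 17.5% for mt-Co2, 5.35% for Gm28661 and 5.40% for their sum. It was 18.2% for mt-Co3, against 3.31% for its sum with Gm28437. mt-Atp6 had 10.1% and its sum 3.995%, and mt-Nd3 had 14.1% and its sum 7.82%. The standard error of the iKO minus WT difference on chow was 0.17 log2 units for mt-Co2 and 0.05 for the sum. Levels of these 4 genes are therefore also given as sums of gene and copy, which do not depend on how the reads were divided between the pair.

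**Figure D1:**
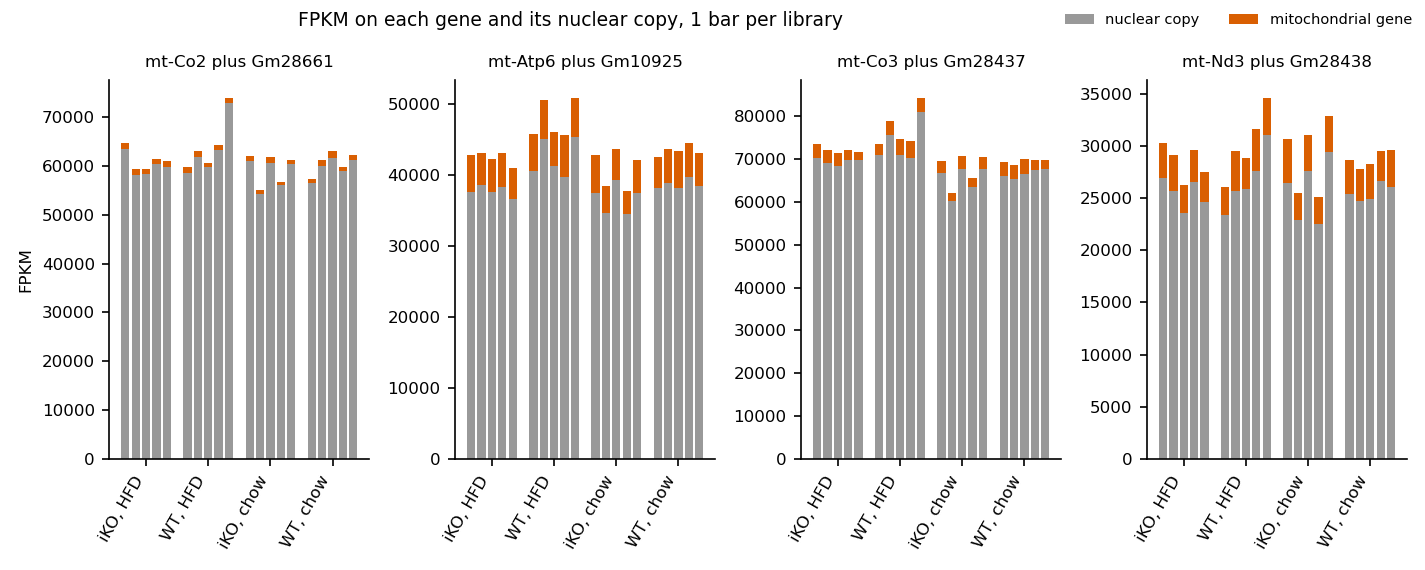
FPKM (y axis) of each mitochondrial gene (orange) stacked on its nuclear copy (grey) for the 4 pairs, 1 bar per library, grouped by genotype and diet. In every library the copy holds most of the sum, between 86.4% and 98.9%.

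A further copy outside the chosen genes bears on mt-Nd4l, a small complex I subunit. Gm10222 at chr1:24612407-24612700 matches mt-Nd4l without mismatch over 294 nt and shares 195 of the gene's 198 stretches of 100 nt (98.48%). It had 3774 to 6911 FPKM and held 23.4% to 33.6% of the pair's sum, so here the mitochondrial row kept the larger value. Gm29216 shares 26.28% of the 100-nt stretches of mt-Co1 and had 63.6 to 844 FPKM. These 2 rows are not counted among the 19 genes.

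The genotype labels were checked on Acacb, which had 8.37 to 11.9 FPKM in the 10 iKO hearts, against 34.9 to 41.9 FPKM in the 10 WT hearts. The sum of all FPKM lay between 780768 and 874125 per library. From the steps of the lowest values, about 12.6 to 32.3 M reads were assigned per library, with group means of 23.1 ± 3.87 M in iKO hearts on HFD, 27.9 ± 3.47 M in WT hearts on HFD, 19.9 ± 4.87 M in iKO hearts on chow and 21.3 ± 1.24 M in WT hearts on chow (SD, n = 5 each). The WT libraries had 23.9 to 32.3 M on HFD and 19.5 to 22.7 M on chow. These ranges do not overlap, so depth and diet cannot be told apart in WT hearts. Markers of heart muscle were high throughout, those of fat summed to 3.89 FPKM or less, and the 1 of 4 lung epithelium markers with a row had 0.02 FPKM or less. Skeletal muscle markers, 5 with a row, summed to 48.2 to 198.7 FPKM in 19 libraries and to 428 FPKM in RT4. The iKO chow libraries RT4 and RT7 stand apart for the mitochondrial genes, with 1 and 0 of the 19 genes above their median over all 20 libraries. Both were singled out by these values, so leaving them out raises the iKO chow level by construction. RT4 had the highest summed level of 11 fibroblast markers (902 FPKM) and RT7 the fewest reads, and values without both are given beside the results they move most. The WT HFD library RT19 had the highest FPKM sum.

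As a share of all FPKM, the 19 genes together took 57.8%, 58.2%, 58.4%, 58.8% and 59.6% in the iKO hearts on HFD and 58.2%, 59.2%, 59.5%, 60.6% and 61.4% in the WT hearts on HFD. They took 52.1%, 52.2%, 55.9%, 57.1% and 57.4% in the iKO hearts on chow and 55.5%, 56.1%, 56.3%, 56.7% and 56.8% in the WT hearts on chow. Every HFD library lay above every chow library of the same genotype. The means were 58.6% ± 0.669 (iKO, HFD), 59.8% ± 1.24 (WT, HFD), 54.9% ± 2.59 (iKO, chow) and 56.3% ± 0.541 (WT, chow), each SD with n = 5. FPKM is a value per length of transcript, so these are not shares of reads.

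The 13 protein genes held 34.2% ± 0.560 in iKO and 34.3% ± 0.787 in WT on HFD, against 31.1% ± 1.80 in iKO and 32.1% ± 0.347 in WT on chow. The 4 nuclear copies held 23.4% ± 0.234 and 24.6% ± 1.06 on HFD in iKO and WT, against 22.9% ± 0.774 and 23.2% ± 0.254 on chow in iKO and WT. The 2 rRNA genes, mt-Rnr1 (12S) and mt-Rnr2 (16S), held between 0.684% and 1.08% of a library. Protein genes and copies together were 3.64 percentage points higher on HFD than on chow in iKO hearts and 3.56 points higher in WT hearts. Without RT4 and RT7 the difference in iKO hearts was 1.82 points. Between genotypes, iKO minus WT was -1.26 points on HFD and -1.34 points on chow with overlapping ranges, and the difference on chow turned to 0.48 points without RT4 and RT7. No p is given for these sums. In bulk tissue, fewer cells of a type and less RNA per cell cannot be told apart, and a higher share of the mitochondrial genes lowers the FPKM of the other genes, since the values of a library share 1 total.

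**Figure D2:**
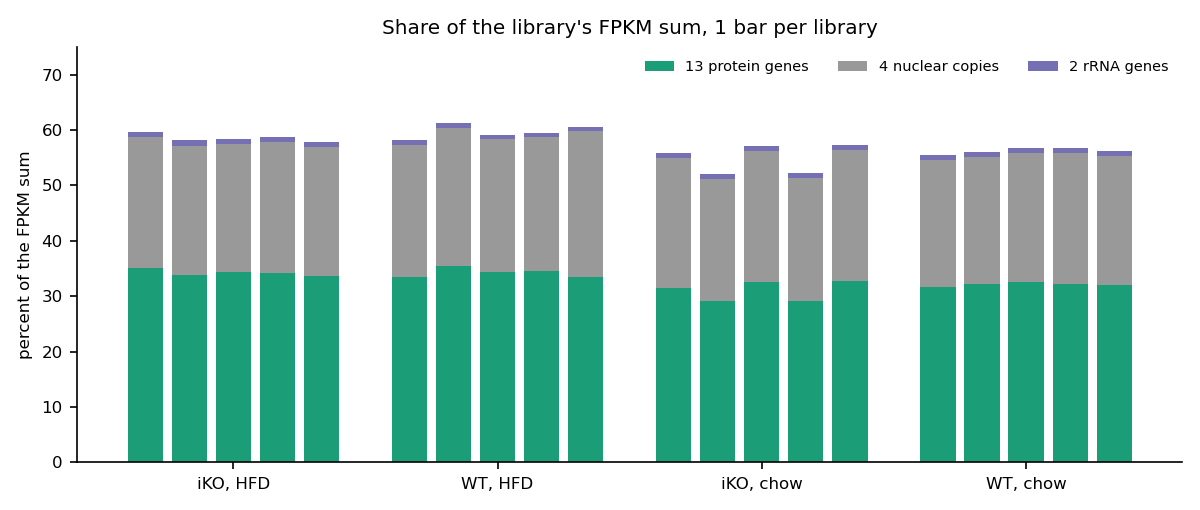
Percent of the library's FPKM sum (y axis) held by the 13 protein genes, the 4 nuclear copies and the 2 rRNA genes, 1 bar per library. The HFD libraries total 57.8% to 61.4% and the chow libraries 52.1% to 57.4%.

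Levels per length differed widely between genes whose RNAs are cut from shared precursors. With each copy added to the gene it matches, in WT hearts on chow, mt-Co1 was highest at 79826 ± 1754 FPKM (SD, n = 5). mt-Co1 is the catalytic subunit of cytochrome c oxidase. mt-Co3 with Gm28437 had 69543 ± 601 FPKM and mt-Co2 with Gm28661 had 60707 ± 2234 FPKM, so the 3 mitochondrial subunits of complex IV led the order. The subunits of ATP synthase followed, mt-Atp6 with Gm10925 at 43455 ± 729 FPKM and mt-Atp8 at 36894 ± 2001 FPKM.

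mt-Cytb, the only subunit of complex III encoded by mitochondrial DNA, had 29916 ± 620 FPKM. The complex I genes came next, with mt-Nd3 and Gm28438 at 28779 ± 815 FPKM, mt-Nd1 at 27820 ± 201 FPKM and mt-Nd4 at 19750 ± 406 FPKM. mt-Nd2 had 19018 ± 378 FPKM, mt-Nd4l with Gm10222 had 17665 ± 390 FPKM and mt-Nd5 had 14472 ± 181 FPKM. mt-Nd6 was the lowest of the mRNAs at 10854 ± 253 FPKM. The 5 libraries of neighbours in this order overlapped in 3 places, mt-Cytb with mt-Nd3, mt-Nd3 with mt-Nd1, and mt-Nd4 with mt-Nd2. All other neighbours were separated in every library of the group. The highest mRNA was 7.36 times the lowest.

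mt-Nd6 is the only protein gene on the minus strand of the mitochondrial sequence as the annotation gives it (chrM:13552-14070), and in human cells its messenger is known to lack a poly(A) tail. No source used here states a strand for the counting, so reads from the opposite strand of mt-Nd6 cannot be told apart from its own. The rRNAs, mt-Rnr2 with 4756 ± 467 FPKM and mt-Rnr1 with 2892 ± 219 FPKM, were below every mRNA in these poly(A)-enriched libraries, and their levels are not those of total RNA.

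**Figure D3:**
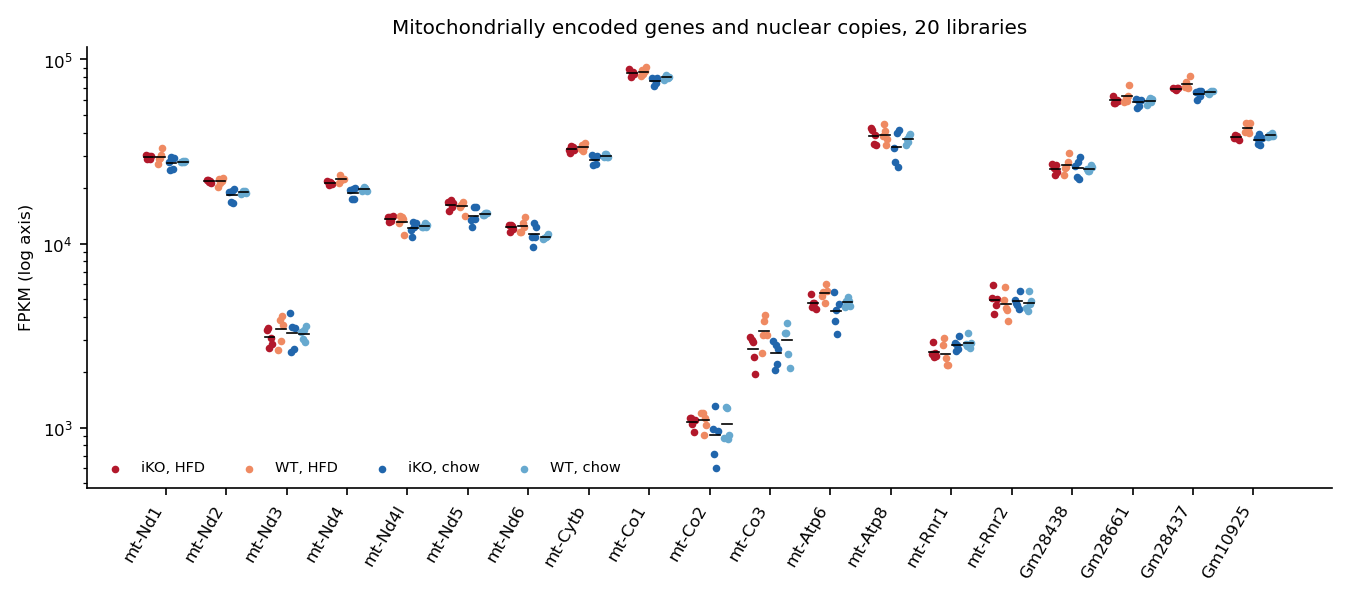
FPKM (y axis, log scale) of the 19 genes in the 20 libraries, 1 point per library and a line at each group mean, with iKO and WT on HFD in reds left of iKO and WT on chow in blues. The mitochondrial rows mt-Co2, mt-Co3, mt-Nd3 and mt-Atp6 lie far below their copies.

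HFD against chow gave higher values for mt-Nd2, mt-Nd4 and mt-Nd5 of complex I, mt-Cytb of complex III and mt-Co1 of complex IV in iKO hearts. Of the 19 genes, 5 rose, all protein genes, and none fell (limma on log2(FPKM + 1), adjusted over all 12775 genes, threshold 0.05). Among all tested genes 1.65% were higher and 8.36% lower in that comparison. The 13 protein genes had a median log2 fold change of 0.17, with 12 of 13 above 0, while all tested genes had a median of -0.07.

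mt-Nd2, a complex I subunit, had 22168, 22190, 21472, 21950 and 21412 FPKM in iKO hearts on HFD, against 18975, 16792, 19236, 16598 and 19709 FPKM in iKO hearts on chow. Every HFD library lay above every chow library. The log2 fold change was 0.26 ± 0.04 (SE), with a limma adjusted p of 0.000589.

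mt-Cytb, the electron-carrying cytochrome b of complex III, had 32149, 30953, 33945, 33511 and 32192 FPKM in iKO hearts on HFD, against 30091, 26634, 29354, 27142 and 29737 FPKM in iKO hearts on chow. The groups did not overlap, and RT4 and RT7 were the lowest libraries. The log2 fold change was 0.19 ± 0.04 (SE, limma adjusted p = 0.00359).

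mt-Nd4, which forms part of the proton-pumping arm of complex I, had 21816, 20794, 21545, 21318 and 20969 FPKM on HFD, against 19438, 17383, 19686, 17508 and 20077 FPKM on chow in iKO hearts. Again each HFD value was above each chow value, with a log2 fold change of 0.18 ± 0.04 (SE, limma adjusted p = 0.0061). mt-Co1 had 80783 to 88705 FPKM (median 83696) on HFD, against 71800 to 79797 FPKM (median 78738) on chow, without overlap, and rose by 0.14 ± 0.04 on the log2 scale (SE, limma adjusted p = 0.0214). mt-Nd5, another pump subunit of complex I, had 15088 to 17130 FPKM on HFD, against 12338 to 15835 FPKM on chow in iKO hearts, with overlapping groups. Its log2 fold change was 0.20 ± 0.06 (SE, limma adjusted p = 0.0331).

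In all, 6 of the 19 genes had HFD values above every chow value in iKO hearts, against 1.39% of all tested genes that did so. These were mt-Nd2, mt-Cytb, mt-Nd4, mt-Co1, mt-Nd4l and Gm28437, the last pair without passing the test. mt-Nd4l had a log2 fold change of 0.17 (limma adjusted p = 0.0611), and its sum with Gm10222 had 0.22 ± 0.07 (SE, limma adjusted p = 0.042). The result in iKO hearts leaned on RT4 and RT7, the lowest chow libraries. Since both were picked for low values, leaving them out was bound to shrink the difference. The test also has fewer hearts then. In the fit without RT4 and RT7, 2 genes rose, mt-Nd2 by 0.18 (limma adjusted p = 0.00581) and mt-Cytb by 0.13 (limma adjusted p = 0.0486), and the median of the 19 genes was 0.01 in place of 0.12. Of all tested genes, 1.19% were higher and 2.79% lower without them. The others gave 0.11 for mt-Nd4, 0.09 for mt-Co1, 0.12 for mt-Nd5 and 0.11 for mt-Nd4l, with limma adjusted p-values of 0.0732, 0.197, 0.292 and 0.322. Leaving out RT4, RT7 or RT11 alone left 3 calls each. The call of mt-Nd5 was lost in 6 of 10 fits with 1 library left out (RT2, RT4, RT7, RT11, RT15 or RT20, limma adjusted p up to 0.104).

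The other genes did not pass in iKO hearts. mt-Nd1, which forms the quinone site region of complex I, had a log2 fold change of 0.11 ± 0.05, mt-Nd6 had 0.12 ± 0.06 and mt-Atp8 had 0.21 ± 0.11 (SE, limma adjusted p = 0.136, 0.21 and 0.239). For the genes with copies, the sums gave 0.09 for mt-Co3 with Gm28437, 0.06 for mt-Atp6 with Gm10925, 0.04 for mt-Co2 with Gm28661 and -0.02 for mt-Nd3 with Gm28438. mt-Co2 alone had 0.28 ± 0.17 (SE), the highest fold change of the 19 and also the one with the widest interval. mt-Nd3 alone had -0.07 ± 0.13 (SE), the only protein gene below 0. Without RT4 and RT7, mt-Nd1 had 0.04, mt-Nd6 0.03, mt-Atp8 0.01, mt-Co2 -0.01 and mt-Nd3 -0.26.

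In WT hearts 4 of the 19 genes rose on HFD, mt-Nd2, mt-Nd4, mt-Cytb and the copy Gm28437, and none fell. Among all tested genes 0.767% were higher and 7.27% lower. All 13 protein genes were above 0, with a median log2 fold change of 0.13, against a median of -0.08 over all tested genes.

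mt-Nd2 had 20346, 22526, 21317, 21875 and 22764 FPKM in WT hearts on HFD, against 18487, 18916, 19397, 19373 and 18917 FPKM in WT hearts on chow. The groups did not overlap. The log2 fold change was 0.19 ± 0.04 (SE, limma adjusted p = 0.0101). mt-Nd4 had 21205, 23444, 22058, 22427 and 22348 FPKM on HFD, against 19276, 19862, 20208, 20024 and 19381 FPKM on chow in WT hearts. Here too every HFD heart was above every chow heart, and the fold change was 0.17 ± 0.04 (log2, SE), with a limma adjusted p of 0.0101.

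mt-Cytb had 32728, 34217, 31910, 33347 and 35083 FPKM in WT hearts on HFD, against 29405, 30694, 30481, 29435 and 29568 FPKM in WT hearts on chow. The HFD hearts were again all higher, by 0.16 ± 0.04 (log2, SE, limma adjusted p = 0.0135). Gm28437, the copy of mt-Co3, had 70886, 75651, 70960, 70151 and 81044 FPKM on HFD, against 66055, 65327, 66400, 67334 and 67719 FPKM on chow in WT hearts. The highest value was that of RT19. The fold change was 0.15 ± 0.04 (log2, SE, limma adjusted p = 0.0265), and the sum of mt-Co3 and Gm28437 gave 0.15 ± 0.04 (limma adjusted p = 0.0233). The call of Gm28437 was lost in 4 of 10 fits with 1 library left out, those without RT1, RT3, RT14 or RT19 (limma adjusted p of 0.0592, 0.0662, 0.0567 and 0.051). Without RT19 those of mt-Nd2, mt-Nd4 and mt-Cytb remained.

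Groups without overlap were found for 6 genes in WT hearts, each with HFD above chow, against 0.783% of all tested genes. They were the 4 named above, mt-Nd6 and Gm10925. mt-Nd6 had a log2 fold change of 0.19 ± 0.06 (SE, limma adjusted p = 0.0561). Gm10925 had 0.13 ± 0.04 (SE, limma adjusted p = 0.053), and its sum with mt-Atp6 had 0.14 ± 0.04 (SE, limma adjusted p = 0.05005, just above the threshold). mt-Co1 had 0.11 ± 0.04 (SE, limma adjusted p = 0.0754). mt-Nd1, mt-Nd3, mt-Nd4l, mt-Co2 and mt-Atp8 had log2 fold changes between 0.06 and 0.09, with intervals that include 0. mt-Nd5 had 0.13 ± 0.06 (SE, limma adjusted p = 0.161), and mt-Co3 and mt-Atp6 alone had 0.18 and 0.17 with errors of 0.17 and 0.10. The copies Gm28661 and Gm28438 had 0.08 and 0.06.

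**Figure D4:**
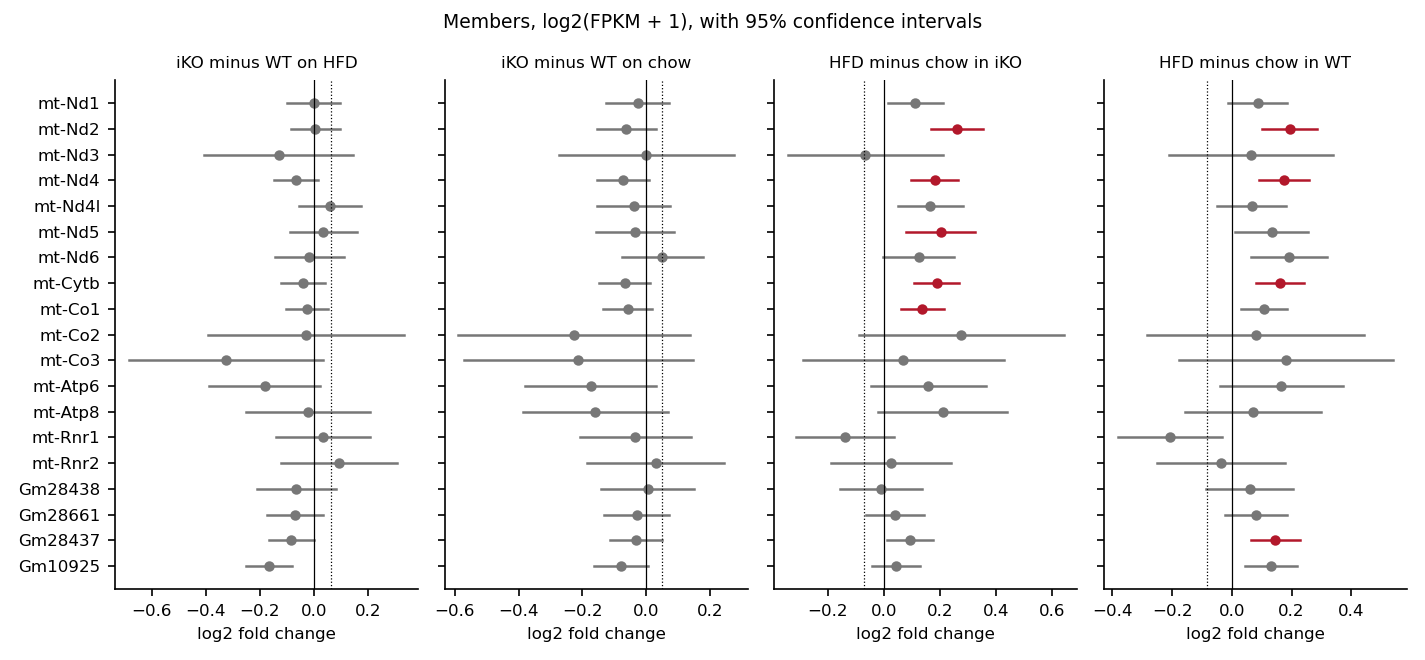
Log2 fold change on the log2(FPKM + 1) scale (x axes) of the 19 genes with 95% confidence intervals, from left to right iKO minus WT on HFD, iKO minus WT on chow, HFD minus chow in iKO and HFD minus chow in WT. Red marks a limma adjusted p below 0.05, the dotted line is the median of all tested genes, and the wide intervals of mt-Co2 and mt-Co3 are those of rows that hold little of their pair.

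Both diet comparisons were fitted in 1 model with the same 20 libraries, and the difference between them was tested as an interaction. None of the 19 genes passed in limma (4 of 12775 genes did, 0.0313%), and 0 of the 19 had an unadjusted p below 0.05. For mt-Nd2 the diet change in iKO minus that in WT was 0.07 (95% confidence interval -0.06 to 0.20). For mt-Cytb it was 0.03 (-0.09 to 0.14) and for mt-Nd4 0.01 (-0.11 to 0.12), all on the log2 scale. The 3 values were -0.02, -0.03 and -0.07 without RT4 and RT7. The calls in 1 genotype alone, mt-Co1 and mt-Nd5 in iKO and Gm28437 in WT, are thus not shown to differ between genotypes.

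Scaling divides all genes of a library by 1 factor, so it can hardly change the distance of the mitochondrial genes from the rest. The count of lower genes over the whole table did change with it. Under median-of-ratios scaling, which puts the median of all genes near 0 in each comparison, the median of the 13 protein genes was 0.26 in iKO and 0.24 in WT hearts for HFD minus chow, with 13 of 13 above 0 in each. Of these, 6 rose in iKO and 3 rose in WT (limma), with mt-Nd2, mt-Nd4 and mt-Cytb among them in both genotypes. Over all tested genes, that scaling gave 2.57% higher and 1.82% lower in iKO, and 1.39% higher and 1.17% lower in WT, so far fewer genes were lower than in the deposited values.

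None of the 19 genes passed the test between genotypes. On HFD, 0 of 19 passed for iKO minus WT (0.172% of all tested genes did, by limma), and 2 had an unadjusted p below 0.05, against 15.2% of all genes. On chow, 0 of 19 passed (1.06% of all genes), and 0 had an unadjusted p below 0.05, against 13.5% of all genes. Median log2 fold changes of the 19 genes were -0.03 on HFD and -0.04 on chow, below the medians of all genes, 0.06 and 0.05. Without RT4 and RT7 the median on chow turned to 0.03, with 14 of 19 genes above 0 in place of 4, and the median of all genes was 0.01. Some rise was fixed by the choice of these 2 low libraries, which were picked on the same values.

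Gm10925 had the smallest p among them. It had 37599, 38650, 37545, 38355 and 36597 FPKM in iKO hearts on HFD, against 40550, 45111, 41309, 39692 and 45338 FPKM in WT hearts on HFD. All 5 iKO hearts lay below all 5 WT hearts, which held for this 1 of the 19 genes and for 0.446% of all tested genes. The log2 fold change was -0.17 ± 0.04 (SE), with a limma adjusted p of 0.115. Its sum with mt-Atp6 gave -0.17 ± 0.04 (SE, limma adjusted p = 0.117), and on chow the sum gave -0.09 ± 0.04 (SE, limma adjusted p = 0.367).

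For the genes with the narrowest errors the intervals bound the genotype difference closely. mt-Co1 had -0.03 on HFD (95% confidence interval -0.10 to 0.05) and -0.06 on chow (-0.13 to 0.02). mt-Cytb had -0.04 on HFD (-0.12 to 0.04) and -0.07 on chow (-0.15 to 0.01). Both had -0.01 on chow without RT4 and RT7. For mt-Co3 alone the interval on HFD reached from -0.68 to 0.03, against -0.17 to -0.01 for its sum with Gm28437, which gave -0.09 (limma adjusted p = 0.277).

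Neither rRNA passed the test in any comparison. mt-Rnr1, the RNA of the small ribosomal subunit, had 2507, 2934, 2403, 2528 and 2450 FPKM in iKO hearts on HFD, against 2894, 2605, 2805, 2657 and 3162 FPKM in iKO hearts on chow. In WT hearts it had 2801, 3049, 2391, 2186 and 2181 FPKM on HFD, against 2846, 2764, 3258, 2695 and 2896 FPKM on chow. The groups overlapped, with log2 fold changes of -0.14 ± 0.08 in iKO and -0.21 ± 0.08 in WT (SE, limma adjusted p = 0.312 and 0.123). Without the WT HFD library RT14 the value in WT was -0.28, with a limma adjusted p of 0.0362. mt-Rnr2 had 4148 to 5919 FPKM in iKO on HFD and 4413 to 5553 FPKM in iKO on chow, and 3799 to 5834 FPKM in WT on HFD and 4300 to 5501 FPKM in WT on chow. Its diet changes were 0.03 ± 0.10 in iKO and -0.04 ± 0.10 in WT (log2, SE).

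Ratios between neighbouring genes do not depend on the scale of a library. Of them, 4 were tested in 4 comparisons each with an exact two-sided permutation test, whose smallest possible p with 5 against 5 hearts is 0.00794, and p-values were adjusted over all 16 tests. None reached an adjusted p below 0.05, and 6 of the 16 had an unadjusted p below 0.05. Given the other p-values, even groups without any overlap could not pass this adjustment. The lack of a pass is therefore no evidence of equal ratios. Both ratios with the smallest p are given first.

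mt-Rnr2 over mt-Rnr1 was 1.85 ± 0.10 in WT hearts on HFD and 1.64 ± 0.08 in WT hearts on chow (SD, n = 5 each), with no overlap (exact permutation p = 0.00794, adjusted 0.0635). In iKO hearts the ratio was 1.93 ± 0.14 on HFD and 1.72 ± 0.07 on chow (exact permutation p = 0.0317, adjusted 0.102). Between genotypes it gave an exact permutation p of 0.373 on HFD and 0.175 on chow. The 2 rRNAs lie next to each other with only a tRNA gene between them, mt-Rnr1 first. mt-Nd6 over mt-Nd5 was 0.795 ± 0.016 in iKO hearts on chow and 0.7499 ± 0.0113 in WT hearts on chow, again without overlap (exact permutation p = 0.00794, adjusted 0.0635), while on HFD it was 0.753 ± 0.028 in iKO and 0.787 ± 0.115 in WT (exact permutation p = 0.817). The WT mean on HFD rests on RT19, at 0.987 against 0.713 to 0.780 in the other 4 hearts. The log2 difference for iKO minus WT on HFD was -0.05 with RT19 and 0.03 without it. For HFD minus chow, mt-Nd6 over mt-Nd5 gave -0.08 in iKO (log2, exact permutation p = 0.0317, adjusted 0.102) and 0.06 in WT (exact permutation p = 0.825), and in WT -0.03 without RT19.

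The other ratios are those of genes on the same strand that overlap in the annotation. mt-Nd5 and mt-Nd6, on opposite strands, also overlap by 14 nt. mt-Atp8 and mt-Atp6 share 43 nt and are known to be translated from 1 messenger, as are mt-Nd4l and mt-Nd4, which share 7 nt. These stretches are shown with the shared bases in capitals, since those bases belong to both genes.
mt-Atp8 and mt-Atp6 (chrM:7907-7989, plus strand): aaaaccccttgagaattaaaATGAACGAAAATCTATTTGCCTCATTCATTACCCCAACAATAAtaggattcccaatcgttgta
mt-Nd4l and mt-Nd4 (chrM:10147-10193, plus strand): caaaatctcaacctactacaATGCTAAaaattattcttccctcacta
As deposited, mt-Atp8 over mt-Atp6 was 8.09 ± 0.67 (iKO, HFD), 7.30 ± 1.17 (WT, HFD), 7.87 ± 1.23 (iKO, chow) and 7.72 ± 0.56 (WT, chow). With Gm10925 added to mt-Atp6 it was 0.900 ± 0.072, 0.814 ± 0.075, 0.815 ± 0.124 and 0.849 ± 0.041 in the same order of groups. mt-Nd4l over mt-Nd4 was 0.641 ± 0.019, 0.589 ± 0.052, 0.648 ± 0.037 and 0.633 ± 0.016 as deposited. The exact permutation p was 0.0238 for iKO minus WT on HFD (adjusted 0.102) and 0.0397 for HFD minus chow in WT (adjusted 0.106). RT19 had the lowest ratio of the WT hearts on HFD, 0.498. With the copies Gm10222 and Gm28439, which matches part of mt-Nd4, added the ratio was 0.924 ± 0.052, 0.852 ± 0.101, 0.899 ± 0.051 and 0.895 ± 0.023. The same tests then gave an exact permutation p of 0.1905 and 0.571. With the copies added, both ratios of genes on a shared messenger were nearer to 1 in every group.

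Nuclear genes for the same complexes had lower deposited values on HFD, as most genes did. Of 80 nuclear OXPHOS genes, 0 rose and 21 fell in iKO hearts (26.2%, against 8.36% of all tested genes). Their median log2 fold change was -0.12, against -0.07 over all genes, and 2 of 80 were above 0. In WT hearts 0 rose and 5 fell (6.25%, against 7.27% of all tested genes). The median was -0.08, as over all genes, and 9 were above 0. These counts moved with single libraries. In iKO hearts 9 fell without RT4 and RT7, and 11 to 24 with 1 library left out, fewest without RT7 or RT15. In WT hearts 17 fell without RT19, and 1 fell without RT3, RT10, RT12, RT14 or RT18 alone. The 3 with the smallest p in iKO were Ndufb9, a complex I subunit (-0.19), Atpif1, the inhibitor of ATP synthase (-0.36), and Ndufa12, another complex I subunit (-0.21), with limma adjusted p-values of 0.00387, 0.00455 and 0.0074. In WT they were Atpif1 (-0.33), Cox7a1, a complex IV subunit of heart and skeletal muscle (-0.24), and Atp5o of ATP synthase (-0.15), with limma adjusted p-values of 0.0101, 0.0275 and 0.0343.

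This direction depended on scale. Under median-of-ratios scaling 0 of 80 passed in either direction in iKO or WT hearts (limma), and the medians were -0.03 in iKO and 0.03 in WT. Each library is scaled by 1 factor, so scaling is no check of the gap between mitochondrial and nuclear genes. The gap between the medians of the 13 mitochondrial and the 80 nuclear genes is nearly fixed in advance. It was 0.17 against -0.12 in iKO and 0.13 against -0.08 in WT in the deposited values, and 0.26 against -0.03 in iKO and 0.24 against 0.03 in WT under median-of-ratios scaling. Without RT4 and RT7 the deposited medians in iKO were 0.04 for the mitochondrial genes and -0.11 for the nuclear genes, so the gap there was smaller. Without RT19 those in WT were 0.14 and -0.12. No test was made of the gap. Nuclear genes were assigned to complexes by symbol alone, so Ndufa4, which fell in iKO hearts, counts under complex I. Set against the 8.36% of all tested genes that fell in iKO hearts, 12 of 37 fell under complex I and 1 of 9 under complex III. The counts were 3 of 13 for complex IV, 5 of 16 for ATP synthase and 0 of 4 for complex II, which has no mitochondrially encoded subunit.

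**Figure D5:**
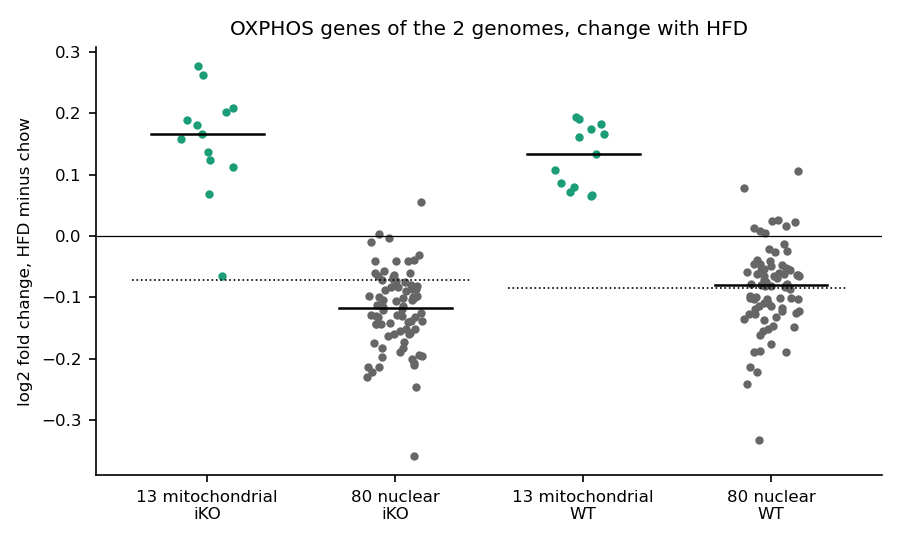
Log2 fold change for HFD minus chow (y axis) of the 13 mitochondrial protein genes (green) and 80 nuclear OXPHOS genes (grey), 1 point per gene, in iKO and WT hearts. Solid lines are medians and dotted lines the median of all tested genes. The mitochondrial medians are 0.17 and 0.13 and the nuclear medians -0.12 and -0.08; without RT4 and RT7 those in iKO are 0.04 and -0.11.

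Among 21 tested genes that copy or transcribe mitochondrial DNA, 0 rose and 1 fell on HFD in iKO hearts (4.76%, against 8.36% of all tested genes). It was Tk2, a thymidine kinase of mitochondria (-0.26, limma adjusted p = 0.0445). In iKO hearts 0 of the 21 fell without RT2, RT4, RT11, RT13, RT15, RT17 or RT20 alone. In WT hearts 0 rose and 3 fell (14.3%, against 7.27% of all tested genes), and 1 or 2 fell with any 1 library left out. They were Rnaseh1, which removes RNA primers (-0.30, limma adjusted p = 0.0139), Tk2 (-0.28, limma adjusted p = 0.0344) and Tfb2m, a factor that starts mitochondrial transcription (-0.15, limma adjusted p = 0.0436). Of 37 tested genes of mitochondrial RNA processing and stability, 0 rose and 6 fell in iKO (16.2%, against 8.36%) and 0 rose and 5 fell in WT (13.5%, against 7.27%). Without RT4 and RT7, 1 of 37 fell in iKO, and 2 fell without RT4, RT7, RT11 or RT13 alone. Hsd17b10, a subunit of the enzyme that cuts tRNAs from the precursors, led both, with -0.26 in iKO and -0.35 in WT (limma adjusted p = 0.00387 and 0.000559). Rexo2, which degrades short RNAs (-0.27), and Rpusd4, a pseudouridine synthase (-0.29), came next in iKO, and Ptcd2, an RNA-binding protein (-0.29), and Trub2, a pseudouridine synthase (-0.30), in WT. Medians of the 2 lists were -0.10 and -0.12 in iKO and -0.11 and -0.11 in WT. Under median-of-ratios scaling 0 of 21 and 1 of 37 fell in iKO and 0 of each in WT (limma). For iKO minus WT, none of the 3 lists had a member that passed on either diet.

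Markers of heart muscle moved with diet beside the mitochondrial genes. Of 12 cardiomyocyte markers, 8 fell on HFD in iKO hearts (66.7%, against 8.36% of all tested genes) and 7 in WT hearts (58.3%, against 7.27%), led by Myl3, a myosin light chain (-0.40 in iKO and -0.36 in WT, limma adjusted p = 2.31e-05 and 0.000153). With median-of-ratios scaling, 3 of 12 fell in iKO (1.82% of all genes) and 2 of 12 in WT (1.17%). As deposited, 7 fell in iKO without RT4 and RT7, and in WT 4 fell without RT3, RT10, RT12 or RT14 alone. The summed FPKM of the list was 39600 to 41820 in iKO on HFD and 37800 to 46810 in WT on HFD, against 47200 to 52680 in iKO on chow and 47600 to 48990 in WT on chow. Their part in the diet result was not tested. Of 6 atrial markers, the sum was 43.5 to 117 FPKM in iKO and 22.1 to 70.4 FPKM in WT on HFD. On chow it was 98.1 to 375 FPKM in iKO and 58.4 to 703 FPKM in WT. The highest values were in RT4 and RT1, and their part was not tested either. For iKO minus WT, 70.8% of all tested genes were above 0 on chow and 74.4% on HFD. Of the fibroblast markers, 11 of 11 were above 0 on chow and 10 of 11 on HFD (log2 medians 0.44 and 0.31). Of 9 macrophage markers, 9 were above 0 on both diets (0.23 on chow and 0.18 on HFD). Of 12 cardiomyocyte markers, 5 were above 0 on chow and 4 on HFD. Endothelial markers gave 5 of 9 on chow and 9 of 9 on HFD, and those of smooth muscle and pericytes 4 of 8 and 8 of 8. Erythroid markers gave 5 of 5 on chow and 0 of 5 on HFD. Atrial markers gave 2 of 3 and skeletal muscle markers 1 of 2 on each diet. None of these passed (limma). On chow 11 fibroblast and 9 macrophage markers stayed above 0 without RT4 and RT7 (0.23 and 0.11), as did 7149 of the 12775 tested genes. The part of these markers in the genotype values was not tested.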

How the data were processed

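Gene expression was taken as FPKM, 1 table per library, as the authors deposited it. Per the submitters' processing notes, Bowtie2, RSEM and DESeq2 were used with the mm9 build. Versions and strand setting are not given in the sources used here. The Ensembl IDs belong to a later annotation than mm9, so coordinates and sequences are those of the same IDs in GENCODE M21 (GRCm38), and no coordinate comes from the authors' files. The genes and lists described here were chosen with earlier results of these data known.

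The plan named a count test, but the values are FPKM. Whole reads could not be recovered: only 53.85% to 71.33% of low values of genes of 130 to 450 nt came within 0.05 of a whole read, and the read totals given are estimates from those steps. The 12775 genes that reached 0.5 FPKM in 5 or more libraries were therefore fitted as log2(FPKM + 1) with limma 3.58.1 in R 4.3.3, with trend and robust moderation, 4 group means over 20 libraries and no covariates. Fold changes on this scale understate those of low genes. P-values were adjusted over all tested genes (Benjamini-Hochberg), with 0.05 as the threshold. The fit was checked on simulated data. Ratios of neighbouring genes were compared by exact permutation in Python 3.11.15. For a gene and its copy the FPKM were added. Each mouse is 1 library, and replicate numbers do not pair samples across groups. Alternatives were other scalings, another pseudocount, filters, moderation, sample weights, the 10 libraries of a contrast alone, leaving out each library, and, chosen after seeing the data, added copies and leaving out RT4 with RT7 or RT19. All 19 genes are accounted for by name. Of the other lists, up to 3 passing genes per comparison are named, by smallest p. No 2 libraries were identical.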

Additional observations from a re-analysis of the deposited data

Results flagged for a closer look

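Of 104 sets of 5 libraries examined for a value far from the others, 3 held one. Chance alone flags about 1 in 20 such sets. In the iKO hearts on HFD, mt-Rnr1 was 2934 FPKM in RT13, against 2403 to 2528 FPKM in the other 4. In the WT hearts on HFD, RT19 had a ratio of mt-Nd6 to mt-Nd5 of 0.987, against 0.713 to 0.780 in the others. The same library had a ratio of mt-Nd4l to mt-Nd4 of 0.498, against 0.599 to 0.632 in the others. RT19 was also the library with the highest FPKM sum. No gene among the 19 had a diet change that differed between genotypes by the interaction test.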

How the results depend on the processing

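For HFD minus chow in WT hearts 4 genes passed. The count was 7 when values were divided by the FPKM sum of the other genes, 8 with sample weights, and 3 to 5 with 1 library left out. In iKO hearts 5 passed, with 8 under division by the sum of the other genes, 3 with the 10 libraries of the contrast alone, 2 without RT4 and RT7, and 3 to 6 with 1 library left out. Both genotype comparisons and the interaction gave 0 under every alternative run. mt-Nd2 and mt-Cytb passed in both genotypes under all of them. No value that passed changed sign.

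Divided by themselves and the rows that are not members, the rRNA genes differed by 0.092 points for HFD minus chow in iKO, against -0.033 in the full share. With copies added, mt-Atp8 over mt-Atp6 gave -0.072 for iKO minus WT on chow in place of 0.015, and mt-Nd4l over mt-Nd4 gave 0.040 for HFD minus chow in iKO in place of -0.015, all log2. With 1 library left out, mt-Nd6 over mt-Nd5 ranged from -0.085 to 0.032 for iKO minus WT on HFD, -0.026 to 0.091 for HFD minus chow in WT and -0.099 to -0.066 for HFD minus chow in iKO. mt-Atp8 over mt-Atp6 ranged from -0.043 to 0.105 for iKO minus WT on chow and -0.038 to 0.110 for HFD minus chow in iKO. mt-Nd4l over mt-Nd4 ranged from 0.067 to 0.153 for iKO minus WT on HFD, -0.135 to -0.049 for HFD minus chow in WT and -0.036 to 0.015 for HFD minus chow in iKO. mt-Rnr2 over mt-Rnr1 ranged from 0.143 to 0.205 for HFD minus chow in iKO. Without 1 library the adjusted p of 4 ratio tests came below 0.05. The causes were not tested.

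With 5 hearts a group, and values without counts, the standard errors of 0.04 to 0.17 log2 units set what can be seen. No paired analysis was possible because the labels name no pairing and no litter, although the WT mice were littermates.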
